A study of Mus musculus with 9 samples.

Results

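Basal cells of the growing hair bulb were compared with the stem cells of the hair follicle bulge, the most distant pair among the basal-layer populations measured. The pair was taken by sample label and holds 5 of the 9 bulk RNA-seq libraries of the series. The populations are basal hair bulb (basal HB, 2 libraries) and hair follicle stem cells (HFSC, 3 libraries). Both were sorted from mouse back skin at postnatal day 30, when the titles put the follicles in anagen VI, the stage of full hair growth. The outer root sheath (ORS, 2 libraries), a basal layer between bulge and bulb, was sorted from the same kind of skin and is set beside the pair, and suprabasal hair bulb (2 libraries) entered the same model. All groups share the strain label Lhx2-GFP on a CD1 background and a sex label of mixed. The text on extraction names K14-H2BGFP mice instead, so which green fluorescent line gave the sorting signal was not settled by the labels. The sort used GFP, integrins alpha6 and beta1, CD34, Sca-1 and P-cadherin. The labels give neither the gates nor the number of animals behind a library, and they do not say whether replicates of a population came from separate mice.

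The bulge is the resting niche of the hair follicle and keeps stem cells attached to a basement membrane, marked in mouse by CD34 and keratin 15 and dependent on the transcription factor SOX9. The bulb surrounds the dermal papilla at the base of a growing follicle, and its basal matrix cells divide and give rise to the hair shaft and the inner root sheath. WNT signals, read through beta-catenin and the LEF1 and TCF factors, and BMP signals, read through SMAD proteins, are known regulators of these steps, and pigment cells, dermal cells and nerve endings lie close to both places.

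Levels are normalised read counts scaled to library size (CPM), computed from the authors' estimated gene counts, and a log2 change is basal HB over HFSC with its standard error (SE). A gene is called higher or lower when edgeR's quasi-likelihood test gave a Benjamini-Hochberg adjusted p under 0.05 over all 20491 genes tested. The estimated counts summed to 60990600 and 63511683 in basal HB libraries and to between 25098237 and 29902799 in HFSC libraries, so depth differed with the population. At 3 counts, the floor was 0.0436 to 0.0446 CPM in basal HB and 0.109 to 0.133 CPM in HFSC. Genes of the sex chromosomes also moved with the population. Xist, transcribed from the inactive X chromosome, stood at 359 and 298 CPM in basal HB, against 1290, 1190 and 1440 CPM in HFSC. The Y-linked RNA helicase gene Ddx3y stood at 70.3 and 71.2 CPM in basal HB, against 0, 0 and 0.0364 CPM in HFSC. Population, sex make-up and depth therefore cannot be told apart in any difference below, and the genes described are the 15153 tested protein-coding genes of the autosomes. The ribosomal protein gene Rps12 was at 0 in every HFSC library and averaged 260 CPM in basal HB, 232 CPM in ORS and 342 CPM in suprabasal HB. Whether HFSC libraries were also counted differently was not tested.

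The 4 markers fixed for the populations did not overlap between them, as was the case for 73.0% of all tested genes. Axin2, a feedback target of WNT signalling, stood at 127 and 120 CPM in basal HB, against 12.8, 13.4 and 16.3 CPM in HFSC. The averages were 123 ± 4.91 CPM in basal HB (SD, n = 2) and 14.1 ± 1.88 CPM in HFSC (SD, n = 3), a log2 change of 3.12 (SE 0.149; edgeR adjusted p = 4e-06). Lef1, the transcription factor that partners beta-catenin, stood at 268 and 240 CPM in basal HB, against 22.6, 25.4 and 29.6 CPM in HFSC (log2 change 3.3, SE 0.231; edgeR adjusted p = 1.4e-05). Both genes were thus about 9 to 10 times higher in the bulb, at 8.72-fold and 9.83-fold. Sox9 stood at 7.46 and 7.45 CPM in basal HB, against 152, 129 and 130 CPM in HFSC, a log2 change of -4.2 (SE 0.208; edgeR adjusted p = 4.5e-06). Cd34, which encodes the surface protein used in the sort, stood at 34.7 and 41.5 CPM in basal HB, against 412, 381 and 344 CPM in HFSC (log2 change -3.31, SE 0.191; edgeR adjusted p = 6.6e-06). In ORS libraries all 4 genes lay between the bulb and the bulge: Axin2 at 46.5 and 33.9 CPM, Lef1 at 98.8 and 53.8 CPM, Sox9 at 17.5 and 15.7 CPM, and Cd34 at 65.7 and 80.7 CPM. Axin2, Lef1 and Sox9, whose proteins were not used in the sort, lay in the direction that the labels imply. Axin2 (ENSMUSG00000000142) lies on the plus strand at chr11:108920349-108950783 and Sox9 (ENSMUSG00000000567) on the plus strand at chr11:112782224-112787760, both in mm10.

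Of the 15153 genes, 3564 were higher in basal HB (23.5%) and 4381 were lower (28.9%), so that 52.4% were called and 7208 were not. At least 2-fold changes were called for 2016 higher and 1872 lower genes, 25.7% of those tested, and at least 4-fold changes for 1168 higher and 761 lower genes. The median log2 change over all tested genes was -0.04 and its median size was 0.5. Libraries of the 2 populations did not overlap for 73.0% of genes. The balance of directions depended on scaling. Under limma on log2(TPM + 1), TPM being the deposited length-scaled levels, 6115 genes were higher and 2344 lower, or 72.3% higher among those called against 44.9% here, and the median log2 change over all genes moved to 0.22. The share higher was 58.6% when only autosomal protein-coding genes entered the fit, with a median log2 change of 0.12, 56.4% with upper-quartile scaling, and 56.0% to 56.6% when any 1 HFSC library was left out. Without basal HB replicate 1, 2510 genes were higher and 2769 lower. The median of a gene list on log2(TPM + 1) is given beside it where it differs by over 1.5 times or in sign. Counts of list members called in basal HB against HFSC below are to be read beside 23.5% higher and 28.9% lower over all tested genes.

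**Figure D1:**
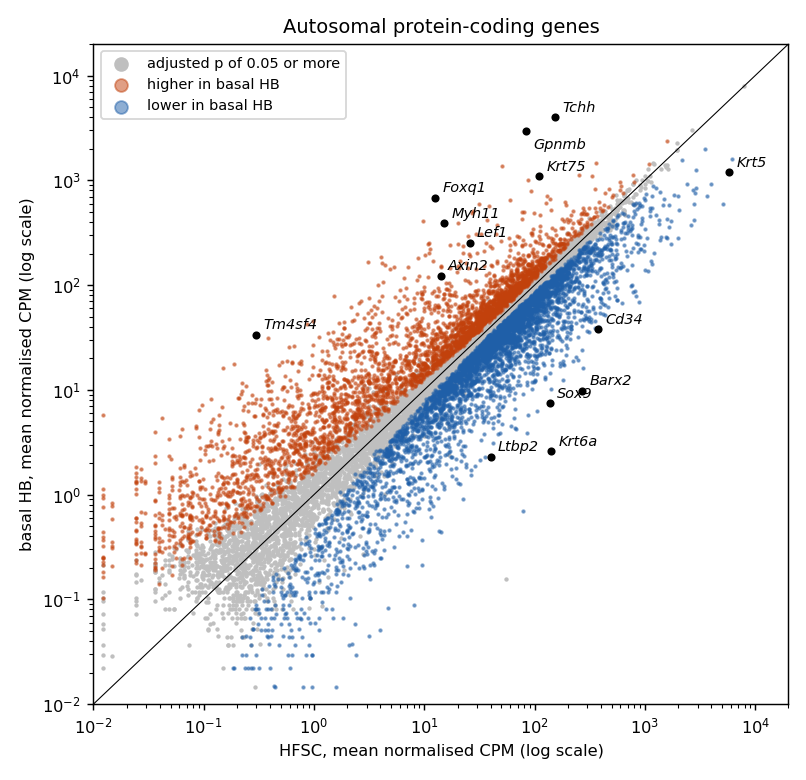
Mean normalised CPM of each tested autosomal protein-coding gene in basal HB (n = 2, vertical log axis) against HFSC (n = 3, horizontal log axis); genes with a mean of 0 in a population are not drawn. Among the 3564 higher and 4381 lower genes, those drawn lie above and below the diagonal. Tm4sf4, Foxq1, Tchh and Gpnmb lie far above it, and Krt6a, Ltbp2, Sox9 and Barx2 far below.

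The bulb and the bulge were farther apart than either was from the outer root sheath. Across genes, log2 CPM of basal HB and HFSC libraries correlated at 0.9 to 0.912, with a median of 0.906 over 6 library pairs. ORS and HFSC libraries correlated at a median of 0.952 over 6 pairs, and basal HB and ORS libraries at a median of 0.94 over 4 pairs. Within a population the correlation was 0.993 in basal HB and 0.981 to 0.984 in HFSC. These correlations run across genes, which are not independent replicates, and are descriptions. ORS against HFSC, which uses the same 3 HFSC libraries, gave 2705 higher (17.9%) and 4083 lower genes (26.9%), or 44.8% called, and 16.0% were called with at least a 2-fold change. Basal HB against ORS gave 2927 higher (19.3%) and 2686 lower genes (17.7%), or 37.0% called, and 18.2% were called with at least a 2-fold change. On log2(TPM + 1), the share higher among called genes moved from 39.8% to 66.9% in ORS against HFSC. In basal HB against ORS it moved from 52.1% to 60.6%. The sex-linked genes differed here too, with Xist at 1.11 CPM in ORS replicate 1 and 1460 CPM in ORS replicate 2.

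The steepest rises in the bulb were in genes of several kinds. Tm4sf4, which encodes a membrane protein of the tetraspanin-like L6 family, stood at 31.1 and 35.9 CPM in basal HB, against 0.218, 0.532 and 0.145 CPM in HFSC, a 116-fold difference (log2 change 6.85, SE 0.42; edgeR adjusted p = 8.4e-06). Its HFSC levels were near the floor, so the size of the fold is poorly fixed. It lies on the plus strand at chr3:57425314-57441677 in mm10 and was also higher than in ORS, by 6.67 on the log2 scale. The forkhead factor gene Foxq1, whose loss gives the mouse satin coat, stood at 649 and 719 CPM in basal HB, against 10.7, 12.4 and 14.2 CPM in HFSC (log2 change 5.78, SE 0.325; edgeR adjusted p = 6.3e-06). It shares 0.661 of its 25-base words with the overlapping antisense gene A530084C06Rik, so its value is uncertain if strand was not used in counting. B3gnt5, a glycosyltransferase of glycolipid synthesis, stood at 160 and 171 CPM in basal HB, against 3.05, 3.32 and 2.8 CPM in HFSC, and was 54.3-fold higher. Sptssb, a small subunit of the enzyme that starts sphingolipid synthesis, stood at 172 and 198 CPM in basal HB, against 4.39, 4.61 and 3.05 CPM in HFSC, and was 46.2-fold higher. These genes were picked among those whose libraries did not overlap, so their lack of overlap was set by the choice.

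Muscle and kidney genes were also among the 12 largest rises. Myog, a transcription factor of skeletal muscle, stood at 26 and 35.9 CPM in basal HB, against 0.471, 0.31 and 0.364 CPM in HFSC (log2 change 6.32, SE 0.513; edgeR adjusted p = 2.7e-05). Actc1, the cardiac actin, stood at 15.8 and 19.9 CPM in basal HB, against 0.254, 0.31 and 0 CPM in HFSC, a log2 change of 6.6. Slc12a1, a salt cotransporter known from kidney, stood at 17.1 and 15.5 CPM in basal HB, against 0.363, 0.0886 and 0 CPM in HFSC, a log2 change of 6.71. HFSC levels of all 3 genes were close to the floor, so the size of these changes is poorly fixed. The remaining large rises were 50.8-fold for Btg3, a member of an antiproliferative family, 51.8-fold for Rbm24, an RNA-binding protein gene of muscle, 48.4-fold for Nccrp1 and 43.5-fold for the urate oxidase gene Uox, besides the WNT antagonist Dkk2 described below. A further 51 genes were called higher with every HFSC library at 0, and 9 of them reached 1 CPM in basal HB. The most abundant was the ribosomal protein gene Rps12, listed at 0 in HFSC and at means of 260 CPM in basal HB, 232 CPM in ORS and 342 CPM in suprabasal HB. Since every cell makes this protein, no fold is given. Next was Gm20458, at 13.2, 9.09 and 12.7 CPM in these populations. Most of the 9 were likewise similar outside HFSC, so they set HFSC apart rather than basal HB. The exceptions were a and Mup2, with Mup2 at 1.06, 0.0986 and 0 CPM. The cause was not tested.

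The steepest falls included developmental transcription factors of the upper follicle. Barx2, a homeobox factor gene, stood at 9.5 and 10.1 CPM in basal HB, against 272, 280 and 256 CPM in HFSC, and was 27.5-fold lower (log2 change -4.78, SE 0.272; edgeR adjusted p = 6.5e-06). It lies on the minus strand at chr9:31846044-31913462 in mm10. Lmx1b, a LIM homeobox factor gene, stood at 0.582 and 0.64 CPM in basal HB, against 15.7, 10.1 and 8.61 CPM in HFSC, and was 18.7-fold lower. Shisa2, whose protein holds back FGF and WNT receptors inside the cell, stood at 14.9 and 17.5 CPM in basal HB, against 293, 302 and 234 CPM in HFSC, and was 17.1-fold lower (edgeR adjusted p = 7.7e-06). Ltbp2, a latent TGF-beta binding protein family member of the extracellular matrix, stood at 1.79 and 2.81 CPM in basal HB, against 40.5, 49.1 and 29.7 CPM in HFSC, and was 17.3-fold lower. Lack of overlap between the populations was likewise a condition for choosing the largest falls. Atp8a2, a phospholipid flippase gene, was 25-fold lower and Cwh43, a gene of GPI-anchor remodelling, was 30.3-fold lower. Another 4 of the 12 largest falls share much of their sequence with other genes and are uncertain: Krt6a with a log2 change of -5.77 and a shared part of 0.637, Zfp972 with -5.01 and 0.771, Gm45234 with -6.79 and 0.971, and Gm20721 with -4.46 and 0.926.

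**Figure D2:**
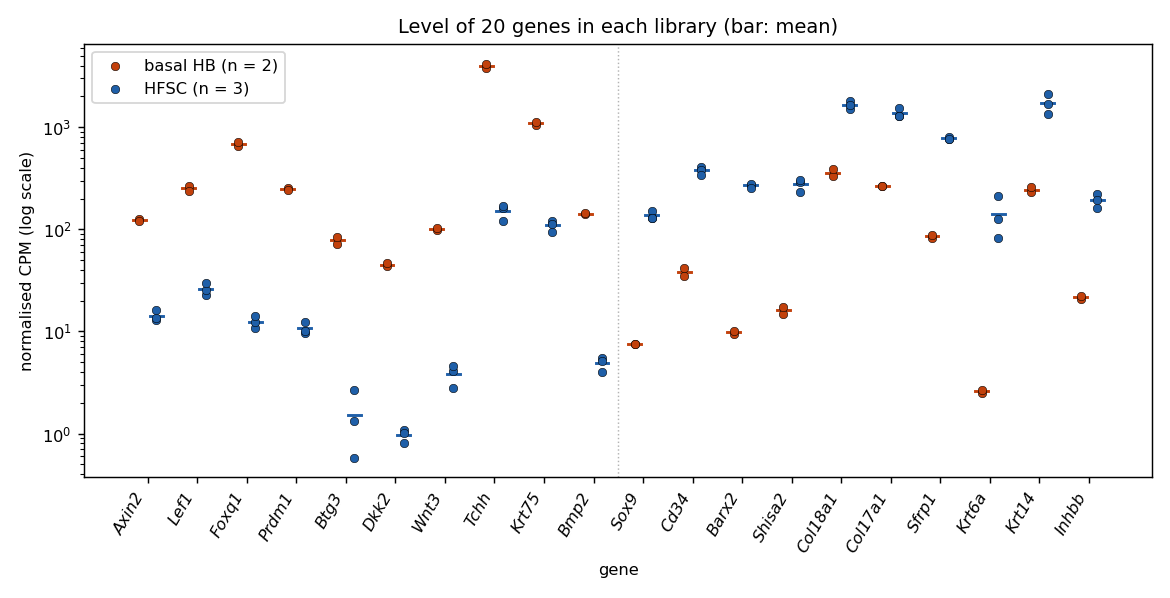
Normalised CPM (log axis) of 20 named genes in each basal HB library (n = 2) and each HFSC library (n = 3), one point per library. Axin2, Lef1 and Foxq1 are high in both basal HB libraries and Sox9, Cd34 and Barx2 are high in all 3 HFSC libraries.

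Bulge genes were mostly lower in the bulb. Their list includes Sox9 and Cd34, described above, and the protein of Cd34 was used in the sort. Counts, median and sums of the list are therefore not independent of the sort. Of 16 tested members of the bulge stem cell list, 0 were higher, 12 were lower and 4 were not called, with a median log2 change of -2.21 beside -0.04 over all genes. Their summed level was 1680 to 2210 CPM in basal HB, against 10200 to 11200 CPM in HFSC. Krt15, the keratin that marks the bulge, stood at 294 and 449 CPM in basal HB, against 2840, 2690 and 2380 CPM in HFSC (log2 change -2.83, SE 0.233; edgeR adjusted p = 2.9e-05). Lgr5, an R-spondin receptor of cycling follicle stem cells, stood at 63.1 and 93.9 CPM in basal HB, against 540, 542 and 510 CPM in HFSC, and was 6.76-fold lower. Timp3, a metalloprotease inhibitor, stood at 342 and 498 CPM in basal HB, against 2950, 2590 and 2750 CPM in HFSC, and was 6.58-fold lower. Basal HB replicate 1 was the lower of the pair for all 3, and both replicates were far below HFSC. Krt24, a low-level bulge keratin, was near the floor in basal HB at 0.0291 and 0.0297 CPM, against 1.12, 2.26 and 3.74 CPM in HFSC (edgeR adjusted p = 0.00061). The members with no call were Nfatc1, a factor of stem cell quiescence, at a log2 change of 0.54 (edgeR adjusted p = 0.24), Fgf18 at 0.7, Foxc1 at 0.48 and Npnt at -0.03. In ORS against HFSC, which shares the HFSC libraries, 9 of the 16 were lower and 1 was higher (26.9% and 17.9% of all tested genes), with a median of -0.83 beside -0.1 over all genes.

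All 6 genes of the sorting markers were lower in basal HB, with a median log2 change of -1.63. The cells were chosen by some of these proteins, so the differences are not independent of the sort. Ly6a, the gene of Sca-1, stood at 4.68 and 4.92 CPM in basal HB, against 22.1, 15.7 and 34.1 CPM in HFSC (log2 change -2.32). Lhx2 stood at 354 and 480 CPM in basal HB, against 1350, 1270 and 1420 CPM in HFSC (log2 change -1.69, edgeR adjusted p = 0.0012), with 2960 and 3380 CPM in ORS. The P-cadherin gene Cdh3 changed by -1.57, the beta1 integrin gene Itgb1 by -0.66 and the alpha6 integrin gene Itga6 by -0.35.

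WNT ligand genes were mostly higher in the bulb. Of 19 ligands on the list 15 passed the filter on low counts. Of these, 9 were higher and 2 were lower, beside 23.5% and 28.9% of all tested genes. Another 4 were not called, and the median log2 change was 1.93. Their summed level was 710 to 711 CPM in basal HB, against 158 to 185 CPM in HFSC. Wnt3 stood at 98.4 and 102 CPM in basal HB, against 2.79, 4.12 and 4.54 CPM in HFSC (log2 change 4.72, SE 0.369; edgeR adjusted p = 2.2e-05), with 8.5 and 3.17 CPM in ORS. Wnt4 stood at 238 and 266 CPM in basal HB, against 32.9, 37.3 and 39.5 CPM in HFSC, and was 6.88-fold higher. Wnt5a, which mostly signals without beta-catenin, stood at 222 and 178 CPM in basal HB, against 21.6, 26.1 and 29.2 CPM in HFSC, and was 7.81-fold higher. The 3 genes did not overlap between populations, nor did 73.0% of all tested genes. Wnt7b, Wnt10b, Wnt6 and Wnt10a were higher by 2.6, 2.22, 1.93 and 1.2 on the log2 scale. Wnt9b was also called, at 0.626 and 0.58 CPM in basal HB, against 0.0725, 0.0443 and 0 CPM in HFSC, levels at or under the floor in HFSC. Wnt8a was called at an edgeR adjusted p of 0.025, and the call was lost without HFSC replicate 1 (0.0552), HFSC replicate 2 (0.0584), HFSC replicate 3 (0.0742) or basal HB replicate 1 (0.227). Wnt9a and Wnt5b ran the other way: Wnt9a stood at 7.45 and 10.2 CPM in basal HB, against 42.5, 36 and 43.2 CPM in HFSC, and was 4.59-fold lower, and Wnt5b was lower by -1.83 on the log2 scale.

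WNT receptor genes ran mostly in the opposite direction. Of 15, 3 were higher, 11 were lower and 1 was not called, with a median log2 change of -0.64. Their summed level was 1120 to 1240 CPM in basal HB, against 1990 to 2180 CPM in HFSC. On log2(TPM + 1) the count was 2 higher and 7 lower with a median of -0.19. Fzd1, a frizzled receptor gene, stood at 173 and 226 CPM in basal HB, against 604, 527 and 549 CPM in HFSC (log2 change -1.49, SE 0.197; edgeR adjusted p = 0.00035). Fzd2 stood at 50.5 and 53.9 CPM in basal HB, against 173, 141 and 154 CPM in HFSC, and was 2.98-fold lower. Lrp6 and Lrp5, the co-receptor genes, changed by -0.85 and -0.64 on the log2 scale. Fzd10 was the exception among abundant receptors, at 144 and 142 CPM in basal HB, against 23.3, 31.5 and 33.7 CPM in HFSC, and was 4.86-fold higher. The third higher receptor beside Fzd10 and Fzd3 was Fzd9, at 0.247 and 0.238 CPM in basal HB, against 0.109, 0 and 0 CPM in HFSC (edgeR adjusted p = 0.044). Its HFSC level lay at or under the floor, and leaving out single libraries gave adjusted p of up to 0.136.

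Genes that WNT signalling is known to switch on were mostly higher in the bulb. Of 12 targets and feedback genes, 10 were higher, 1 was lower and 1 was not called, with a median log2 change of 2.59. Their summed level was 1250 to 1280 CPM in basal HB, against 370 to 447 CPM in HFSC. Besides Axin2 and Lef1, the feedback inhibitor gene Nkd1 stood at 38.6 and 38.4 CPM in basal HB, against 3.7, 4.39 and 3.16 CPM in HFSC (log2 change 3.36, SE 0.24; edgeR adjusted p = 1.5e-05). Tnfrsf19, a receptor of the tumour necrosis factor family, stood at 295 and 318 CPM in basal HB, against 25.9, 35.5 and 35.6 CPM in HFSC, and was 9.48-fold higher. Apcdd1, a membrane inhibitor of WNT signalling, stood at 192 and 184 CPM in basal HB, against 20.3, 28.9 and 28.4 CPM in HFSC, and was 7.28-fold higher. The populations did not overlap for these 3 genes, nor for 73.0% of all tested genes. In ORS, Nkd1 stood at 7.63 and 4.1 CPM, Tnfrsf19 at 124 and 60.7 CPM and Apcdd1 at 72.8 and 32.4 CPM. The transcription factor genes Sp5 and Tcf7 rose by 2.88 and 2.29 on the log2 scale, and Nkd2, Znrf3 and Rnf43 by 2.31, 1.5 and 1.1. The cyclin D1 gene Ccnd1 was the member that fell, at 94.9 and 87.1 CPM in basal HB, against 180, 235 and 195 CPM in HFSC (log2 change -1.16; edgeR adjusted p = 0.0027). Myc stood at 23 and 26.2 CPM in basal HB, against 30.8, 29 and 29.7 CPM in HFSC, and was not called.

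**Figure D3:**
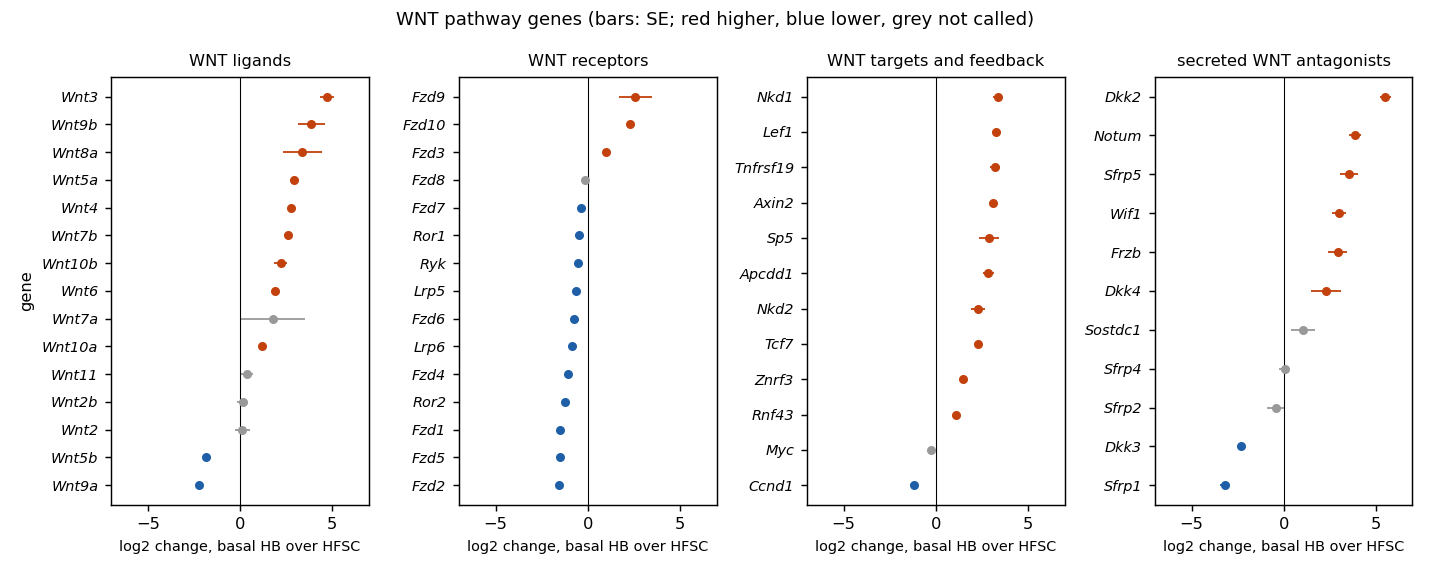
Log2 change of basal HB over HFSC with SE bars for WNT ligands, receptors, targets and secreted antagonists, one row per gene. Most ligands and targets lie to the right of 0, and 11 of 15 receptors were called lower.

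The promoters of target genes were read for the words that LEF1 and TCF factors bind. The words searched were CTTTGAA or CTTTGAT or CTTTGTA or CTTTGTT on both strands, in the 250 bases before the start in RefSeq's promoter windows (GRCm38.p6). At least 1 word lay in 3 of the 8 target genes with a window, Lef1, Sp5 and Tnfrsf19. It also lay in 14.8% of all 32851 windows. Counted by gene, with a match in any window of the gene, the unit differs from that share. By gene it lay in 13.4% of the higher genes with a window, 13.5% of the lower ones and 12.8% of all tested ones. Among other lists searched, it lay in 3 of 14 cholesterol synthesis genes, 2 of 11 WNT ligands and 0 of 5 secreted WNT antagonists. The windows of Sp5 and Tnfrsf19 are shown because these target genes rose and carry a match; capitals mark the matches, and Sp5 has 2, starting 222 and 104 bases before the gene's start. The Tnfrsf19 match starts 202 bases before its start, which lies inside the longer annotated gene. A match describes letters and is not a bound site.
Sp5, plus strand, chr2:70474673-70474922: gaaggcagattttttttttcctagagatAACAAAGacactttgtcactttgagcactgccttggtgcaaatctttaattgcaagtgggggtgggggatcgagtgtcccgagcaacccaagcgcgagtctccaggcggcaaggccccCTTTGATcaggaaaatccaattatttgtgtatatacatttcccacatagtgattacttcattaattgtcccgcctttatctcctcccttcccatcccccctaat
Tnfrsf19, minus strand, chr14:61037988-61038237: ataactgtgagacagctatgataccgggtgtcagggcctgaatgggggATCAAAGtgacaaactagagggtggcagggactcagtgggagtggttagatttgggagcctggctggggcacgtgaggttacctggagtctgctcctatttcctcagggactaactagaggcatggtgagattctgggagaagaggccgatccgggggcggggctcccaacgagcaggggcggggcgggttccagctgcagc

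Secreted WNT antagonists divided by gene. Of 13 listed, 11 were tested, of which 6 were higher, 2 were lower and 3 were not called, with a median log2 change of 2.31, or 1.42 on log2(TPM + 1), but their summed level was lower in the bulb, at 439 to 442 CPM in basal HB, against 954 to 981 CPM in HFSC. The sum followed Sfrp1, a secreted frizzled-like decoy, which stood at 81.4 and 88.9 CPM in basal HB, against 775, 794 and 769 CPM in HFSC (log2 change -3.19, SE 0.287; edgeR adjusted p = 4.4e-05). Dkk3 stood at 25.7 and 26 CPM in basal HB, against 136, 131 and 119 CPM in HFSC, and was 4.97-fold lower. Dkk2, which blocks the LRP co-receptors, stood at 43.3 and 46.5 CPM in basal HB, against 1.09, 1.02 and 0.8 CPM in HFSC (log2 change 5.53, SE 0.315; edgeR adjusted p = 6.5e-06). In ORS it stood at 0.354 and 0.682 CPM, so that basal HB was higher than both other basal layers. Wif1, which binds WNT proteins, stood at 175 and 164 CPM in basal HB, against 17.6, 21.2 and 24.2 CPM in HFSC, and was 8.09-fold higher. Notum, an enzyme that removes the lipid of WNT proteins, stood at 52.2 and 54.7 CPM in basal HB, against 3.48, 3.46 and 3.78 CPM in HFSC, and was 14.9-fold higher; it shares 0.342 of its words with an overlapping gene. Sfrp5 stood at 7.65 and 6.54 CPM in basal HB, against 0.435, 0.354 and 0.981 CPM in HFSC, and was 11.8-fold higher. Against ORS, 8 of the 11 antagonists were higher in basal HB and 0 were lower (19.3% and 17.7% of all tested genes).

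Among BMP and TGF-beta ligands, 6 of 11 were higher in the bulb, 2 were lower and 3 were not called, with a median log2 change of 1.55. Bmp2 stood at 141 and 143 CPM in basal HB, against 5.44, 4.03 and 5.13 CPM in HFSC (log2 change 4.86, SE 0.302; edgeR adjusted p = 8.8e-06), with 15.2 and 6.89 CPM in ORS. Bmp4 stood at 36.4 and 30.7 CPM in basal HB, against 4.42, 5.58 and 5.38 CPM in HFSC, and was 6.54-fold higher. The 2 activin subunit genes moved apart. Inhba stood at 29.2 and 24.8 CPM in basal HB, against 1.38, 2.26 and 0.909 CPM in HFSC, and was 18-fold higher. Inhbb stood at 21 and 22.1 CPM in basal HB, against 221, 192 and 162 CPM in HFSC, and was 8.91-fold lower (edgeR adjusted p = 3e-06). Bmp6 was the other ligand that fell, by 1.34 on the log2 scale.

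Their receptors changed in both directions: 3 of 9 were higher, 5 lower and 1 not called, with a median log2 change of -0.34 that moved to -0.02 on log2(TPM + 1). Tgfbr3, the co-receptor betaglycan, stood at 22.8 and 26.3 CPM in basal HB, against 90, 73 and 79.8 CPM in HFSC (log2 change -1.72; edgeR adjusted p = 0.00035). Acvr2b, an activin receptor gene, stood at 5.73 and 4.61 CPM in basal HB, against 1.34, 1.64 and 2.14 CPM in HFSC, and was 3.02-fold higher. Bmpr1b and Bmpr1a, BMP receptor genes, were called lower at edgeR adjusted p of 0.021 and 0.02. The Bmpr1b call was lost without HFSC replicate 2 (0.0518), HFSC replicate 3 (0.0542), basal HB replicate 1 (0.135) or basal HB replicate 2 (0.0879), and that of Bmpr1a was lost without single libraries at adjusted p of up to 0.219. Bmpr1a was also not called on log2(TPM + 1), at a log2 change of -0.02 (limma adjusted p = 0.838), without a filter on low counts (0.136), with only autosomal protein-coding genes (0.124) or with upper-quartile scaling (0.0715). The number of lower receptors was 3 without HFSC replicate 2, HFSC replicate 3 or either basal HB replicate.

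Inhibitors of the pathway were higher for 4 of 9, lower for 2 and not called for 3, with a median log2 change of 0.54, or 0.87 on log2(TPM + 1). Bambi, a decoy receptor, stood at 281 and 314 CPM in basal HB, against 21.9, 27.2 and 25.2 CPM in HFSC (log2 change 3.59, SE 0.269; edgeR adjusted p = 1.9e-05). Smad7, an inhibitory SMAD, stood at 147 and 148 CPM in basal HB, against 25.9, 24.7 and 24.3 CPM in HFSC, and was 5.9-fold higher. Neither gene overlapped between the populations, which held for 73.0% of all tested genes. Grem1, a secreted BMP antagonist, stood at 1.24 and 0.55 CPM in basal HB, against 3.52, 8.59 and 4.62 CPM in HFSC, and was 6.2-fold lower. Fstl1 was called lower by 0.58 on the log2 scale, and lost that call without HFSC replicate 1 (edgeR adjusted p 0.0768) or HFSC replicate 3 (0.0748). Without basal HB replicate 1, which leaves a single basal HB library, its log2 change was -0.467 and no call is given. On log2(TPM + 1) Fstl1 was not called, at -0.155 (limma adjusted p = 0.481). Of the 4 ID genes, which are immediate BMP targets, Id1 was 2.15-fold higher, at 154 and 159 CPM in basal HB, against 68.7, 72.6 and 77.9 CPM in HFSC. Id4 was 4.76-fold lower, at 48.8 and 60.8 CPM in basal HB, against 294, 265 and 224 CPM in HFSC. Id3 was called higher at an adjusted p of 0.042, which was 0.125 without basal HB replicate 1 and 0.159 without basal HB replicate 2, and Id2 was not called; the list's median was 0.35, or 0.75 on log2(TPM + 1).

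The hedgehog list was evenly divided, with 5 of 12 higher, 5 lower and 2 not called; its median log2 change was -0.04, and on log2(TPM + 1) it was 0.37 and 2 members were lower. Shh, the ligand made on the matrix side of the bulb in growing follicles, stood at 42.5 and 37.9 CPM in basal HB, against 4.79, 7.4 and 10.8 CPM in HFSC (log2 change 2.39, SE 0.416; edgeR adjusted p = 0.0016), with 37 and 13.2 CPM in ORS. The decoy receptor gene Hhip stood at 42 and 32.5 CPM in basal HB, against 3.19, 3.06 and 2.51 CPM in HFSC, and was 12.8-fold higher. Gli3, mainly a repressor, stood at 514 and 459 CPM in basal HB, against 103, 92.8 and 103 CPM in HFSC, and was 4.89-fold higher. Gli1, a transcriptional target of the pathway, stood at 97.3 and 96 CPM in basal HB, against 287, 211 and 250 CPM in HFSC, and was 2.58-fold lower. Ptch1, the receptor and also a target, stood at 228 and 204 CPM in basal HB, against 294, 240 and 327 CPM in HFSC, and was not called (edgeR adjusted p = 0.055), though it was without suprabasal HB replicate 1 (0.0415).

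In the NOTCH list, 6 of 18 genes were higher, 3 were lower and 9 were not called, with a median log2 change of 0.18, or 0.33 on log2(TPM + 1). Hey2, a NOTCH target, stood at 12.6 and 6.68 CPM in basal HB, against 0.471, 0.487 and 0.254 CPM in HFSC, and was 23.9-fold higher. The receptor gene Notch3 stood at 261 and 267 CPM in basal HB, against 51.3, 40.5 and 58.2 CPM in HFSC (log2 change 2.4, SE 0.251; edgeR adjusted p = 9.6e-05). Heyl, another target, was 2.58-fold higher, while the receptor gene Notch1 stood at 171 and 157 CPM in basal HB, against 383, 274 and 354 CPM in HFSC, and was 2.05-fold lower. Hey2, Heyl and Notch3 are also known from vascular smooth muscle, whose markers are given below. The ligand gene Jag2 stood at 515 and 536 CPM in basal HB, against 663, 478 and 517 CPM in HFSC, and was not called.

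FGF and EGF signals gave 8 higher, 7 lower and 6 not called among 21 genes tested, with a median log2 change of -0.08, or 0.31 on log2(TPM + 1). Leaving out basal HB replicate 1 or 2 reduced the higher ones to 4 or 5. Fgf5, known for ending the growth of hair, stood at 32.9 and 53.8 CPM in basal HB, against 254, 219 and 241 CPM in HFSC (log2 change -2.46, SE 0.385; edgeR adjusted p = 0.00089), with 146 and 267 CPM in ORS. Fgfr3 stood at 126 and 172 CPM in basal HB, against 621, 543 and 647 CPM in HFSC, and was 4.05-fold lower. Fgf10, a ligand known from dermal papilla, stood at 11.3 and 10.4 CPM in basal HB, against 2.43, 1.77 and 2.25 CPM in HFSC, and was 5.01-fold higher. Fgf1 was called 4.44-fold higher at an adjusted p of 0.01, which was 0.0506 without basal HB replicate 1.

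Transcription factors of the hair matrix were higher for 10 of 16 genes, lower for 3 and not called for 3, with a median log2 change of 1.69. Prdm1, the repressor BLIMP1, stood at 253 and 245 CPM in basal HB, against 12.3, 9.75 and 10.1 CPM in HFSC (log2 change 4.53, SE 0.337; edgeR adjusted p = 1.8e-05). Msx1 and Msx2, homeobox factors of the matrix, were 7.13-fold and 6.8-fold higher; Msx2 stood at 295 and 313 CPM in basal HB, against 38.9, 43.4 and 51.7 CPM in HFSC. Hoxc13, a regulator of hair keratins, stood at 497 and 533 CPM in basal HB, against 150, 134 and 139 CPM in HFSC, and was 3.65-fold higher. None of these genes overlapped between the populations, which held for 73.0% of all tested genes. The vitamin D receptor gene Vdr was the largest fall of the list, at 227 and 342 CPM in basal HB, against 2340, 1690 and 1920 CPM in HFSC (log2 change -2.8, SE 0.259; edgeR adjusted p = 5.1e-05). Gata3, a factor of the inner root sheath, was 2.72-fold lower, and Foxn1, the gene behind the nude coat, fell by 0.56 on the log2 scale.

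Genes of the inner root sheath divided by member. Tchh, which encodes trichohyalin of the inner root sheath, stood at 3820 and 4190 CPM in basal HB, against 122, 163 and 171 CPM in HFSC (log2 change 4.72, SE 0.26; edgeR adjusted p = 6.1e-06), with 156 and 85.1 CPM in ORS. Tgm3, a cross-linking enzyme, stood at 194 and 192 CPM in basal HB, against 7.18, 11.2 and 12.4 CPM in HFSC, and was 18.9-fold higher. The keratin gene Krt26 stood at 50.5 and 47.6 CPM in basal HB, against 3.55, 1.55 and 3.45 CPM in HFSC, and was 17-fold higher. Yet the inner root sheath list as a whole gave 4 higher, 1 lower and 5 not called of 10, with a median log2 change of 0.35, or 0.77 on log2(TPM + 1), and the keratins Krt25, Krt27, Krt28, Krt72 and Krt73 were not called. Krt71 stood at 120 and 90.7 CPM in basal HB, against 143, 301 and 318 CPM in HFSC, a lower call at an adjusted p of 0.047 that several settings removed.

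Hair shaft keratins were higher for 9 of 12 genes, lower for 1 and not called for 2, with a median log2 change of 1.49, and they summed to 143 to 167 CPM in basal HB, against 47 to 71.1 CPM in HFSC. Krt86 stood at 12.6 and 11.9 CPM in basal HB, against 1.96, 2.53 and 2.18 CPM in HFSC, and Krt81 at 9.44 and 8.63 CPM in basal HB, against 1.27, 2.79 and 1.78 CPM in HFSC. Both are near-copies of other keratin genes, sharing 0.522 and 0.471 of their words, and are uncertain. Krt35 stood at 115 and 92.6 CPM in basal HB, against 29.6, 50.1 and 37.4 CPM in HFSC, with an edgeR adjusted p of 0.033. That call was lost without HFSC replicate 1 (0.0759), HFSC replicate 3 (0.0656), basal HB replicate 1 (0.148) or basal HB replicate 2 (0.0747). Krt32 ran the other way, at 0.349 and 0.476 CPM in basal HB, against 3.92, 4.25 and 3.85 CPM in HFSC, and was 9.66-fold lower.

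Keratins of the basal and companion layers were lower for 4 of 6 genes tested, higher for 1 and not called for 1, with a median log2 change of -1.82. Krt14, the basal keratin whose promoter drives one of the GFP lines named in the labels, stood at 230 and 260 CPM in basal HB, against 1350, 2130 and 1680 CPM in HFSC (log2 change -2.81, SE 0.201; edgeR adjusted p = 1.5e-05). In ORS it stood at 286 and 308 CPM, where basal HB and ORS were not called different (edgeR adjusted p = 0.34). Its partner Krt5 stood at 1110 and 1290 CPM in basal HB, against 5510, 6250 and 5670 CPM in HFSC, and was 4.83-fold lower. Krt75, the companion layer keratin, stood at 1060 and 1130 CPM in basal HB, against 95, 122 and 113 CPM in HFSC, and was 9.94-fold higher (edgeR adjusted p = 4e-06). Epidermal differentiation genes gave 9 lower, 3 higher and 1 not called of 13, with a median log2 change of -2.17, or -0.94 on log2(TPM + 1), and 5 were lower without basal HB replicate 1 or without basal HB replicate 2. Sbsn, the suprabasin gene, stood at 7.38 and 5.12 CPM in basal HB, against 73.3, 132 and 113 CPM in HFSC, and was 17-fold lower. Ivl, the involucrin gene, was the clearest exception, at 141 and 153 CPM in basal HB, against 18.4, 17.9 and 15.1 CPM in HFSC, and was 8.56-fold higher. Krtdap and Klk7, which lay under 1 CPM in basal HB, were lower at adjusted p of 0.0057 and 0.008, and these calls were lost without basal HB replicate 1 (0.0559) and without basal HB replicate 2 (0.0698).

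Genes of attachment were lower in the bulb. Of 24 basement membrane and hemidesmosome genes, 17 were lower, 2 were higher and 5 were not called, with a median log2 change of -0.91, and on log2(TPM + 1) 11 were lower and the median was -0.56. They summed to 5860 to 6140 CPM in basal HB, against 12100 to 15000 CPM in HFSC. Col17a1, the collagen of hemidesmosomes, stood at 266 and 267 CPM in basal HB, against 1540, 1300 and 1280 CPM in HFSC (log2 change -2.36, SE 0.208; edgeR adjusted p = 4e-05). Col18a1, a basement membrane collagen gene, stood at 332 and 387 CPM in basal HB, against 1810, 1510 and 1640 CPM in HFSC, and was 4.6-fold lower. The cross-linker gene Plec was higher, at 491 and 443 CPM in basal HB, against 233, 172 and 239 CPM in HFSC. In ORS against HFSC, with the same HFSC libraries, 18 of the 24 were lower (26.9% of all tested genes), with a median of -0.84. Basal HB against ORS gave 5 higher and 6 lower (19.3% and 17.7% of all tested genes).

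Cell junction genes gave 8 lower, 3 higher and 6 not called of 17, with a median log2 change of -0.38, and 5 lower and 6 higher on log2(TPM + 1), where the median was -0.01. The E-cadherin gene Cdh1 stood at 78.5 and 78.8 CPM in basal HB, against 307, 347 and 335 CPM in HFSC (log2 change -2.07, SE 0.196; edgeR adjusted p = 5.9e-05). The desmosomal cadherin gene of the hair shaft, Dsg4, stood at 14.5 and 12.7 CPM in basal HB, against 2.03, 3.06 and 2.94 CPM in HFSC, and was 5.09-fold higher. Ctnnb1, the beta-catenin gene, stood at 1380 and 1460 CPM in basal HB, against 1140, 1300 and 1190 CPM in HFSC, and was not called (edgeR adjusted p = 0.11). It was called higher on log2(TPM + 1), by 0.51 (limma adjusted p = 0.00229), and likewise with DESeq2 (0.00359), without a filter (0.0459), with only autosomal protein-coding genes (0.0139), with upper-quartile scaling (0.0131), without HFSC replicate 2 (0.0166) and without suprabasal HB replicate 2 (0.0252).

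Mitosis and DNA replication genes differed by less than 2-fold between bulb and bulge, and the counts called depended on scaling. Of 31 mitosis genes, 15 were higher and 0 lower, with a median log2 change of 0.26. The higher count was 26 on log2(TPM + 1), where the median was 0.56, 9 without basal HB replicate 1 and 6 without basal HB replicate 2. Knl1, a kinetochore scaffold, stood at 58.5 and 56.8 CPM in basal HB, against 29.2, 36 and 31 CPM in HFSC (log2 change 0.85, SE 0.0968; edgeR adjusted p = 0.00016), with 111 and 109 CPM in ORS. Mki67, the proliferation marker, stood at 569 and 529 CPM in basal HB, against 308, 415 and 451 CPM in HFSC, with 1060 and 1020 CPM in ORS. Its adjusted p of 0.027 was 0.142 without basal HB replicate 1 and 0.0746 without basal HB replicate 2. Of 36 DNA replication genes, 0 were higher and 10 lower, beside 23.5% and 28.9% of all tested genes, with a median of -0.14. On log2(TPM + 1), however, 10 were higher and 3 lower and the median was 0.16. Mcm6, a subunit of the replicative helicase, stood at 121 and 122 CPM in basal HB, against 160, 222 and 206 CPM in HFSC, and was 1.61-fold lower. Against ORS, basal HB was lower for all 31 mitosis genes and all 36 replication genes, with medians of -0.85 and -1.02. Over all tested genes 17.7% were lower in that comparison.

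CDK inhibitors and ribosome biogenesis genes were also examined. Of 7 CDK inhibitor genes, 5 were higher and 0 lower, with a median log2 change of 2.21; on log2(TPM + 1), 7 were higher and the median was 0.98. Cdkn1a, which encodes p21, stood at 203 and 221 CPM in basal HB, against 28.8, 38.3 and 36.9 CPM in HFSC (log2 change 2.61, SE 0.219; edgeR adjusted p = 3.2e-05), with 32.3 and 18.4 CPM in ORS. Cdkn1c, which encodes p57, stood at 47 and 60 CPM in basal HB, against 5.58, 5.18 and 6.43 CPM in HFSC, and was 9.31-fold higher. Cdkn2a was called at the low levels of 0.495 and 0.565 CPM in basal HB, against 0.109, 0.0443 and 0.0364 CPM in HFSC, and Cdkn1b, which encodes p27, was not called, at 147 and 151 CPM in basal HB, against 148, 163 and 140 CPM in HFSC, while on log2(TPM + 1) it was called higher by 0.66 (limma adjusted p = 0.000338). Of 25 ribosome biogenesis genes, 12 were higher, 1 was lower and 12 were not called, with a median of 0.23, and 6 were higher without basal HB replicate 2. On log2(TPM + 1), 20 were higher and the median was 0.58. Polr1b, a subunit of RNA polymerase I, stood at 50.7 and 51.7 CPM in basal HB, against 25.3, 28 and 33.3 CPM in HFSC, and was 1.78-fold higher.

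Of the metabolic lists, glycolysis and cholesterol synthesis, the latter had more members called. Of 20 enzymes and regulators, 18 were higher in the bulb, 1 was lower and 1 was not called, with a median log2 change of 1.47 that stayed between 1.31 and 1.76 over all settings tried. They summed to 3540 to 3680 CPM in basal HB, against 1210 to 1410 CPM in HFSC. The sums were 1250 to 1940 CPM in ORS and 3190 to 3920 CPM in suprabasal HB, a range that includes that of basal HB. Hmgcs1, the synthase of an early step of the pathway, stood at 724 and 702 CPM in basal HB, against 105, 157 and 125 CPM in HFSC (log2 change 2.47, SE 0.238; edgeR adjusted p = 6.4e-05), with 274 and 153 CPM in ORS. Mvd, a decarboxylase of the mevalonate arm, stood at 61.3 and 61.2 CPM in basal HB, against 11.9, 13.4 and 13.3 CPM in HFSC, and was 4.75-fold higher. The member that fell was Dhcr7, a reductase of a last step, at 58.6 and 53.9 CPM in basal HB, against 93.3, 99.7 and 94 CPM in HFSC. Against ORS, 16 of the 20 were higher in basal HB and 0 lower (19.3% and 17.7% of all tested genes), with a median of 1.07. ORS against HFSC gave 5 higher and 1 lower (17.9% and 26.9% of all tested genes).

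The sterol response word TCACNCCAC was searched on both strands of the 250 bases before the start in RefSeq windows (GRCm38.p6). It lay in 1 of the 14 listed genes with a window, and in 1.34% of all 11628 tested genes with one. The gene was Hmgcs1, whose match starts 137 bases before the start; its window is shown because the gene rose, with the match in capitals.
Hmgcs1, plus strand, chr13:119690101-119690350: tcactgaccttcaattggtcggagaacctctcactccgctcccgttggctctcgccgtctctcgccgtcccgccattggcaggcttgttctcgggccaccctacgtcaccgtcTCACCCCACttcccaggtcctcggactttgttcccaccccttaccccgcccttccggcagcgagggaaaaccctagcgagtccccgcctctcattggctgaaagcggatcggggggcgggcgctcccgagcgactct

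Antigen presentation genes were lower in the bulb for 7 of 10 members, higher for 0 and not called for 3, with a median log2 change of -0.83, or -0.44 on log2(TPM + 1). Tap1, a peptide transporter gene, stood at 17.9 and 17.4 CPM in basal HB, against 68.4, 64.9 and 64 CPM in HFSC (log2 change -1.9, SE 0.128; edgeR adjusted p = 1.2e-05). Tap2 and Tapbp were 3.42-fold and 3.21-fold lower. The class I heavy chain gene H2-D1 changed by only -0.33 at an adjusted p of 0.0097, a call lost without HFSC replicate 1 (0.108), HFSC replicate 2 (0.0572), HFSC replicate 3 (0.147) or basal HB replicate 1 (0.107). It was also lost on log2(TPM + 1), at a log2 change of -0.04 (limma adjusted p = 0.776), without a filter (0.115), with only autosomal protein-coding genes (0.079) and with upper-quartile scaling (0.0641), and 0.363 of its words occur in other genes. In ORS against HFSC, 9 of the 10 were lower (26.9% of all tested genes), with a median of -1.2.

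**Figure D4:**
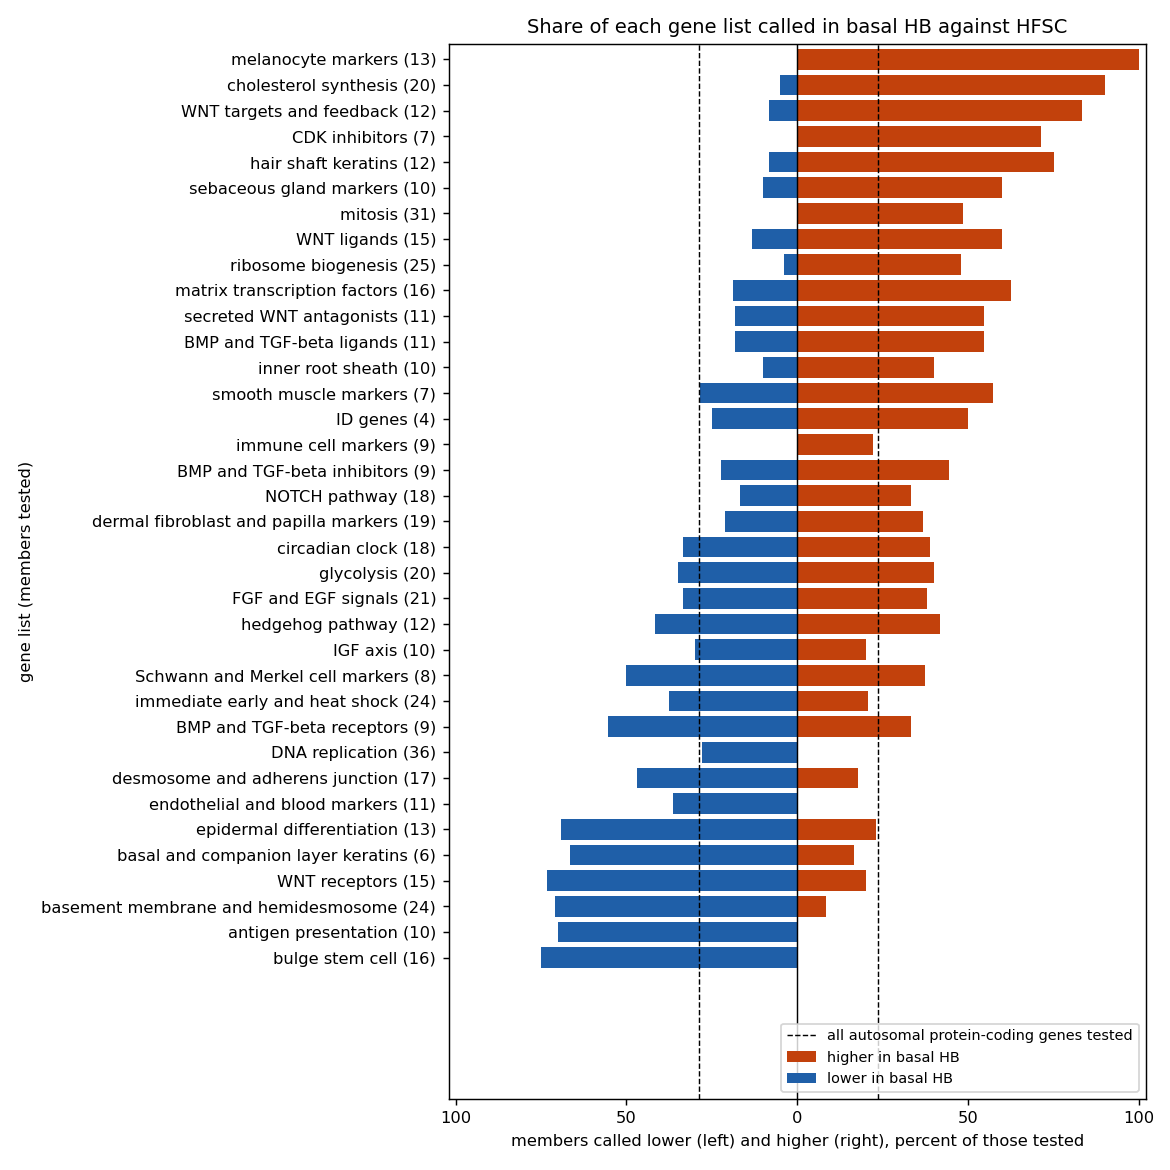
Percent of the tested members of each gene list called lower (left, blue) and higher (right, red) in basal HB against HFSC, with the number of members tested in parentheses and dashed lines at the 28.9% lower and 23.5% higher of all tested genes. Cholesterol synthesis and WNT targets were mostly higher, and bulge stem cell, basement membrane and WNT receptor genes mostly lower.

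Markers of other cell types that a sort can carry moved with the populations. In bulk samples, fewer cells of a type and less RNA per cell cannot be told apart. All 13 melanocyte markers were higher in the bulb, with a median log2 change of 3.38, and they summed to 4040 to 4410 CPM in basal HB, against 200 to 273 CPM in HFSC. Most of that sum was Gpnmb, a membrane glycoprotein gene, at 2880 and 3020 CPM in basal HB, against 79.4, 79.5 and 92.9 CPM in HFSC. Defining melanocyte genes were also present: Dct, an enzyme of melanin synthesis, stood at 489 and 348 CPM in basal HB, against 27.7, 50.5 and 32 CPM in HFSC, and the factor gene Sox10 at 19 and 13.8 CPM in basal HB, against 1.16, 0.576 and 1.2 CPM in HFSC. The part of melanocyte RNA in the differences above was not tested.

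Dermal and muscle markers were mixed. Of 19 dermal fibroblast and papilla markers, 7 were higher, 4 lower and 8 not called, with a median log2 change of 0.63, or 0.19 on log2(TPM + 1), and sums of 2540 to 2970 CPM in basal HB, against 2600 to 4030 CPM in HFSC. The papilla marker Corin stood at 85.6 and 78 CPM in basal HB, against 18.7, 17.6 and 14.4 CPM in HFSC, and was 4.85-fold higher. Crabp1 and Twist1 rose by 3.13 and 3.41. The fibroblast collagen gene Col3a1 stood at 899 and 816 CPM in basal HB, against 880, 686 and 1190 CPM in HFSC, and was not called. Members of this list went both ways, from -2.18 to 3.41 on the log2 scale, and the 4 lower ones are not named here. Of 7 smooth muscle markers, 4 were higher, 2 lower and 1 not called, with sums of 1420 to 1630 CPM in basal HB, against 1670 to 2270 CPM in HFSC and a median of 3.19. The smooth muscle myosin gene Myh11 stood at 385 and 396 CPM in basal HB, against 14.5, 12.2 and 18.8 CPM in HFSC (log2 change 4.68, SE 0.479; edgeR adjusted p = 8.6e-05), and Des and Rgs5 were 14.9-fold and 10.6-fold higher. The actin gene Acta2 was lower, at 498 and 585 CPM in basal HB, against 1360, 840 and 1150 CPM in HFSC (edgeR adjusted p = 0.008). Without basal HB replicate 1, which leaves a single basal HB library, its log2 change was -0.925 and no call is given. On log2(TPM + 1) Acta2 was not called, at -0.624 (limma adjusted p = 0.1). The part of dermal and muscle RNA in Fgf10, Hey2, Notch3, Myog, Actc1 and other genes was not tested.

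The remaining marker lists were smaller. Endothelial and blood markers were lower for 4 of 11, higher for 0 and not called for 7. Over all tested genes 28.9% were lower and 23.5% higher. These markers summed to 62.7 to 73.1 CPM in basal HB, against 136 to 190 CPM in HFSC. Their median log2 change was -0.69, or -0.22 on log2(TPM + 1). The angiopoietin receptor gene Tek stood at 7.71 and 11.8 CPM in basal HB, against 64.4, 52.9 and 62 CPM in HFSC, and was 6.12-fold lower, while the haemoglobin genes Hba-a1 and Hbb-bt lost their lower calls without basal HB replicate 1 (adjusted p 0.0934 and 0.0751), and 1 of the 11 was then lower. Immune cell markers were higher for 2 of 9 and lower for 0, beside 23.5% and 28.9% of all tested genes. They summed to 168 to 185 CPM in basal HB, against 114 to 140 CPM in HFSC, with a median of 0.5. The 2 were Ptprc, whose adjusted p of 0.031 was 0.0592 to 0.154 without HFSC replicate 2, HFSC replicate 3 or either basal HB replicate, and Cd74, whose 0.03 was 0.0813 and 0.141 without basal HB replicates 1 and 2. Schwann and Merkel cell markers gave 3 higher, 4 lower and 1 not called of 8, with a median of -1.53, or -0.57 on log2(TPM + 1), and sums of 179 to 185 CPM in basal HB, against 265 to 283 CPM in HFSC. Among them the Merkel cell keratin gene Krt8 stood at 4.96 and 5.93 CPM in basal HB, against 39.1, 48.6 and 40.5 CPM in HFSC, and was 7.85-fold lower. Sox2 was called at an adjusted p of 0.014, which was 0.074 without basal HB replicate 1. Sebaceous gland markers were higher for 6 of 10, lower for 1 and not called for 3, with a median of 1.09 and sums of 809 to 848 CPM in basal HB, against 437 to 483 CPM in HFSC. They included the triglyceride enzyme gene Dgat2, which was 7.24-fold higher, and the fatty acid synthase gene Fasn, at 361 and 332 CPM in basal HB, against 144, 135 and 158 CPM in HFSC. The part of these cell types in the differences was not tested.

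**Figure D5:**
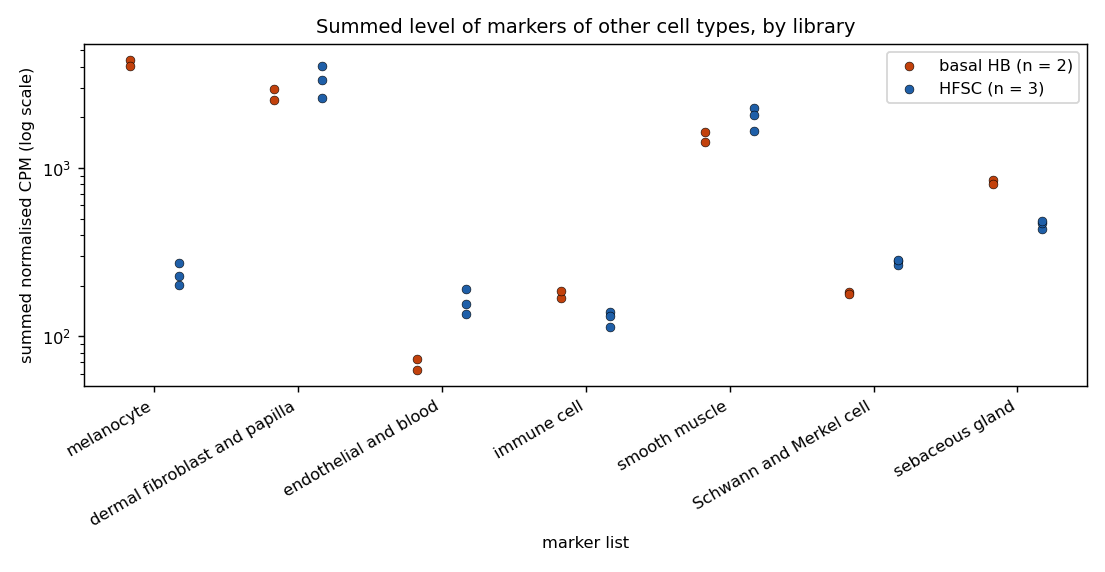
Summed normalised CPM (log axis) of the markers of 7 other cell types in each basal HB library (n = 2) and each HFSC library (n = 3), one point per library. Melanocyte markers sum to 4040 to 4410 CPM in basal HB and 200 to 273 CPM in HFSC, while the dermal sums of 2540 to 2970 CPM in basal HB and 2600 to 4030 CPM in HFSC overlap.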

How the data were processed

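Per the labels, RNA of sorted cells was extracted with TRIzol LS, and TruSeq mRNA libraries were sequenced in pairs on a HiSeq 2000. The authors deposited a table per library with RSEM expected counts and TPM per gene; the submitters' processing notes name Bowtie2 2.2.9, RSEM 1.2.30 and mm10. Counting parameters, including strand, are not given in the sources used here. Of 46517 gene rows, 98.9% matched GENCODE M21 by ID, and 92 spike-in rows were at 0 and left out.

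The authors' expected counts were rounded to whole numbers, filtered with filterByExpr, scaled with TMM and fitted in edgeR 4.0.16 (R 4.3.3) over all 9 libraries with population as the term, which leaves 5 residual degrees of freedom. Adjusted p-values are Benjamini-Hochberg values over the 20491 genes tested, with a threshold of 0.05; SEs are the size of the log2 change over the square root of F. P-values measure only the spread between these libraries, which may be technical. The deposited TPM entered only alternatives, with limma 3.58.1 on log2(TPM + 1) or log2(TPM + 0.1); fold changes on those scales understate low genes. Other alternatives were DESeq2 1.42.0, other scalings and filters, a replicate block and leaving out each library. The script was tested on simulated counts.

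Named genes are the 4 markers, the 12 largest rises and falls among called genes that reach 10 CPM without overlap between libraries and without a population at 0, and, from each of 37 lists (556 members, 555 matched), the 3 called members that changed most and the most abundant one. Some genes that this rule names are not reported here. Other list members named were chosen after their values were seen. The members and lists were chosen with earlier results of these data known. Gene lists are described by counts and medians without a test. CPM values serve comparison of a gene across libraries, not of genes with each other. Shared sequence is the share of a gene's 25-base exon words found in another gene.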

Additional observations from a re-analysis of the deposited data

How the results depend on the processing

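Of the 194 named genes, 151 kept their direction and their side of the threshold under every alternative and 43 did not under at least 1. For basal HB against HFSC, limma on log2(TPM + 1) gave 6115 higher and 2344 lower genes and on log2(TPM + 0.1) 6056 and 2305, and leaving out single libraries gave 2769 to 4359 lower; the cause was not tested. ORS against HFSC gave 4462 and 2204, and 4485 and 2175, on these 2 scales, and basal HB against ORS gave 1939 to 3190 higher and 1202 to 2665 lower when single libraries were left out. The median correlation between libraries was 0.864 for basal HB with HFSC, 0.938 for ORS with HFSC and 0.913 for basal HB with ORS under a stricter filter. It was 0.923 for basal HB with HFSC and 0.96 for ORS with HFSC at pseudocount 1, and 0.912 for basal HB with HFSC at pseudocount 0.1. With both pseudocounts, the lists gave 2 lower hedgehog, 3 lower DNA replication, 11 lower basement membrane, 5 lower junction and 4 lower immediate early genes, and 26 higher mitosis and 20 higher ribosome biogenesis genes. Lower WNT receptors were 7 at pseudocount 1 and 6 at 0.1. Lower DNA replication genes were 5 without a filter, 5 with only autosomal protein-coding genes and 6 with upper-quartile scaling; with only autosomal protein-coding genes 23 mitosis genes were higher. Higher immune markers were 4 at pseudocount 1, 4 with only the HFSC and basal HB libraries and 0 with the replicate block. Leaving out single libraries gave 3 to 5 lower BMP receptors, 1 to 3 higher ID genes, 4 to 8 higher FGF and EGF genes, 4 to 9 lower DNA replication, 6 to 21 higher mitosis, 6 to 14 higher ribosome biogenesis, 5 to 9 lower epidermal, 4 to 13 lower immediate early, 1 to 5 lower endothelial and blood, and 0 to 4 higher immune genes. Log2 changes reversed for 4 genes that were not called as reported, of which Cdkn1b (adjusted p 0.000425 and 0.000338) and Rrm1 (0.0345 and 0.0309) were called higher at pseudocounts 0.1 and 1. For Jag2 they were 0.334 and 0.332 at pseudocounts 0.1 and 1, 0.03 without a filter, 0.085 with only autosomal protein-coding genes, 0.06 with upper-quartile scaling, and -0.101 to 0.205 without single libraries, positive without HFSC replicate 1, HFSC replicate 3 or suprabasal HB replicate 2. For Rrm1 they were 0.239 and 0.236 on the TPM scales and -0.185 to 0.046 without single libraries, positive without HFSC replicate 2. For Cdkn1b they were 0.039 with DESeq2, 0.039 with its size factors, 0.668 and 0.66 on the TPM scales, 0.091 without a filter, 0.147 with only autosomal protein-coding genes, 0.033 with only both populations, 0.009 under the stricter filter, 0.124 with upper-quartile scaling, and -0.03 to 0.183 without single libraries. For Col3a1 they were 0.136 and 0.136 on the TPM scales, 0.003 without a filter, 0.06 with only autosomal protein-coding genes, 0.154 with the replicate block, 0.034 with upper-quartile scaling, and -0.167 to 0.265 without single libraries, positive without HFSC replicate 3 or suprabasal HB replicate 2. Same-numbered libraries deviated together with r = 0.0346 for basal HB and HFSC, -0.0882 for ORS and HFSC, 0.0604 for suprabasal HB and HFSC, 0.214 for basal HB and ORS, 0.118 for suprabasal HB and ORS and 0.176 for suprabasal and basal HB. Not all were over 0.1, and the labels give no pairing; the replicate block gave 3207 higher and 3984 lower genes.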

Other observations

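Genes of the insulin-like growth factor axis divided by member. Of 10, 2 were higher in the bulb, 3 were lower and 5 were not called, with a median log2 change of -0.43, or -0.15 on log2(TPM + 1). Igfbp5, a binding protein gene, stood at 614 and 619 CPM in basal HB, against 161, 185 and 215 CPM in HFSC, and was 3.29-fold higher. Igfbp4 stood at 211 and 235 CPM in basal HB, against 1050, 822 and 860 CPM in HFSC, and was 4.08-fold lower, and Igfbp6 was 4.01-fold lower. The growth factor gene Igf2 was 12.8-fold higher, at 28.3 and 33 CPM in basal HB, against 2.54, 1.77 and 2.84 CPM in HFSC, but shares 0.634 of its words with an overlapping gene and is uncertain. Glycolysis genes gave 8 higher, 7 lower and 5 not called of 20, with a median of 0.1, or 0.47 on log2(TPM + 1). The 2 lactate transporters moved apart: Slc16a3, the exporter MCT4, was 6.41-fold higher, at 6.33 and 7.9 CPM in basal HB, against 1.05, 0.797 and 1.45 CPM in HFSC, and Slc16a1, MCT1, was 5.59-fold lower, at 8.67 and 8.76 CPM in basal HB, against 50.5, 50.9 and 44.7 CPM in HFSC.

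Clock genes gave 7 higher, 6 lower and 5 not called of 18, with a median log2 change of -0.01, or 0.35 on log2(TPM + 1). Rora, a nuclear receptor gene of the clock loop, was 2.77-fold higher (edgeR adjusted p = 0.00036), at 23.1 and 22.6 CPM in basal HB, against 7.98, 7.66 and 9.09 CPM in HFSC. Of 24 immediate early and heat shock genes, which also respond to tissue handling, 5 were higher, 9 were lower and 10 were not called, with a median of -0.4, or -0.01 on log2(TPM + 1). Fosl2, an AP-1 subunit gene, stood at 615 and 595 CPM in basal HB, against 132, 109 and 137 CPM in HFSC, and was 4.79-fold higher. Btg2 stood at 243 and 239 CPM in basal HB, against 609, 661 and 671 CPM in HFSC, and was 2.68-fold lower. The heat shock gene Hspa1b was lower at an edgeR adjusted p of 0.011, which was 0.0552 without HFSC replicate 3. Without basal HB replicates 1 and 2 its log2 changes were -1.341 and -1.241. Each of these fits leaves a single basal HB library, so no call is given for them. On log2(TPM + 1) Hspa1b was not called, at -0.881 (limma adjusted p = 0.0752). It shares 0.701 of its words with other genes, mostly Hspa1a, and is uncertain. A further 19 genes were called lower with both basal HB libraries at 0, and 10 of them reached 1 CPM in HFSC. The most abundant, Gm7324, averaged 29.7 CPM in HFSC, 0.059 CPM in ORS and 0 CPM in suprabasal HB.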
